A study of Mus musculus with 9 samples.

Results

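A set of 10 genes of the p53 response and of cell death was followed in pools of gastrulating mouse embryos: Cdkn1a, Trp53inp1, Bax, Mdm2, Ccng1, Gadd45a, Sesn2, Perp, Ei24 and Btg2. All probe sets whose single gene symbol in the platform's annotation was one of these names were taken. This gave 14 probe sets for 9 of the 10 genes, out of 36899 probe sets in all, and Bax was not analysed here. The knockout pool held about 50 embryos at embryonic day 7.5 (E7.5) with a conditional knockout of beta-catenin (gene Ctnnb1), in which Cre recombinase was driven by the cytokeratin 19 promoter. It was set against a floxed/deleted pool, with 1 floxed and 1 deleted allele of the gene, and a wild-type/floxed pool, with 1 wild-type and 1 floxed allele. All 3 pools were E7.5 embryos, and the labels do not say how many embryos the 2 control pools held or whether they carried Cre. The labels call the floxed/deleted embryos heterozygote and do not give the alleles of the knockout pool. A floxed/deleted pool with Cre could share the knockout's genotype, so differences from it depend on these unstated points. Deletion by Cre depends on that promoter, so cells in whose lineage it was never active would keep the floxed sequence.

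RNA of each pool was hybridised to 3 Affymetrix arrays, 1 per design, MG_U74Av2, MG_U74Bv2 and MG_U74Cv2, called A, B and C here. No probe set serves as a replicate of another, because the designs differ in content. With 1 pool per genotype and design there is no replicate error and no test, and every difference below is a difference between pools. Whole embryos were pooled, so fewer cells expressing a gene and less RNA per cell cannot be told apart. Precision is limited by the number of arrays.

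The protein p53 is a transcription factor that is stabilised by DNA damage and other stress. It induces genes that stop the cell cycle, limit metabolism or start apoptosis, and one of them, Mdm2, encodes the ubiquitin ligase that marks p53 itself for destruction. Embryos around gastrulation divide fast and are known to be prone to apoptosis after damage. The decision to die is then taken by the BCL2 family at the mitochondrion and carried out by caspases.

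The promoters of these genes are shown first because a shared sequence feature stands out in them. Promoters ran from 250 bases before to 50 bases after the annotated start (RefSeq, build GRCm38.p6), and 7 of the 9 genes had an entry, with 8 promoters in all because Cdkn1a had 2. Trp53inp1 and Perp were not among them. The p53 half-site consensus of 10 bases, which is its own reverse complement and so covers both strands, was searched with no mismatch. It was present in 5 of the 8 promoters, against 8.36% of all 32851 promoters. The 5 genes with a match are printed 5′ to 3′ on the gene's strand, with the matched bases in capitals and up to 15 bases on each side that lie before the start.
Cdkn1a, chr17:29090891-29090952 on the plus strand, 73 bases before the start: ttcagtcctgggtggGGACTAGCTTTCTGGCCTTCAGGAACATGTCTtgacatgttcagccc
Ei24, chr9:36797335-36797359 on the minus strand, 10 bases before the start: tgccccgtgcggcccGGGCATGCCC
Gadd45a, chr6:67037423-67037462 on the minus strand, 40 bases before the start: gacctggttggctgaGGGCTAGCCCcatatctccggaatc
Ccng1, chr11:40755447-40755486 on the minus strand, 185 bases before the start: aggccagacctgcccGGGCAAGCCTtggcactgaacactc
Mdm2, chr10:117710920-117710959 on the minus strand, 186 bases before the start: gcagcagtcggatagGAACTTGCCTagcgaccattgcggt

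The capitals of Cdkn1a span 2 such matches and the bases between them. A pair of matches no more than 13 bases apart was found in 24 of the 32851 promoters, or 0.0731%. The match lay in the upstream one of the 2 annotated Cdkn1a promoters. No match in Btg2 and Sesn2 says only that these letters were not in the windows searched. The motif GGGCGG, on either strand, was in 6 of the 8 promoters against 35.7% of all. TATAAA was in 0 of the 8 against 13.6% of all, and CCAAT was in 5 of the 8 against 37.4%. These are matches of letters and not measured binding, and genes known as p53 targets were partly found through such sites.

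Signals are on the linear scale of the deposited files, in which each array had a mean near 150 without its lowest and highest 2% of values. Values below a floor, the median of the design (57.3 on A, 90.0 on B and 80.9 on C), were set to it before a fold or log2 difference was taken. A probe set counted as measured when at least 1 of its 3 values was above the floor. A pool below the floor was read as lower than one above it, and 2 pools below the floor were given no order. Of the 14 probe sets, 10 were measured, for 8 of the 9 genes, and 4 were above the floor on all 3 arrays. Folds are given against the nearer control, and "at least" marks a fold with 1 side at the floor. Floxed/deleted minus wild type/floxed, on the log2 scale, had a standard deviation over all measured probe sets of 0.44 for design A, 0.59 for B and 0.88 for C. Values from design C thus carry the least weight.

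Most of the genes were slightly higher in the knockout pool than in both controls. Taking the brightest measured probe set of each gene, 7 of the 8 measured genes were highest in the knockout by some amount, against 33.4% of the 12442 measured genes, and 0 were lowest in it, against 26.1%. The differences were small. Only Sesn2 was at least 1.5-fold higher than both controls, 1 of 8, where 6.45% of all measured genes were, and 0 were at least 1.5-fold lower, where 5.68% were. Cdkn1a and Sesn2 were above the floor in the knockout alone, so they could be counted only as higher. Of the 6 genes above the floor in at least 1 control, 5 were highest in the knockout, against 29.7% of the 11785 genes chosen the same way, and 0 by at least 1.5-fold, against 4.44%. Among the 4 probe sets that exceeded the floor in every pool, of Btg2, Ei24, Mdm2 and Trp53inp1, the knockout was highest in 4, against 34.5% of the 12860 probe sets of that kind. In 0 of these 4 was it at least 1.5-fold higher, against 4.46%. A count over so few genes is a description of these arrays and has no error attached to it. The genes were chosen with earlier results of these data known, and the counts above share genes, so none is independent support for another.

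**Figure D1:**
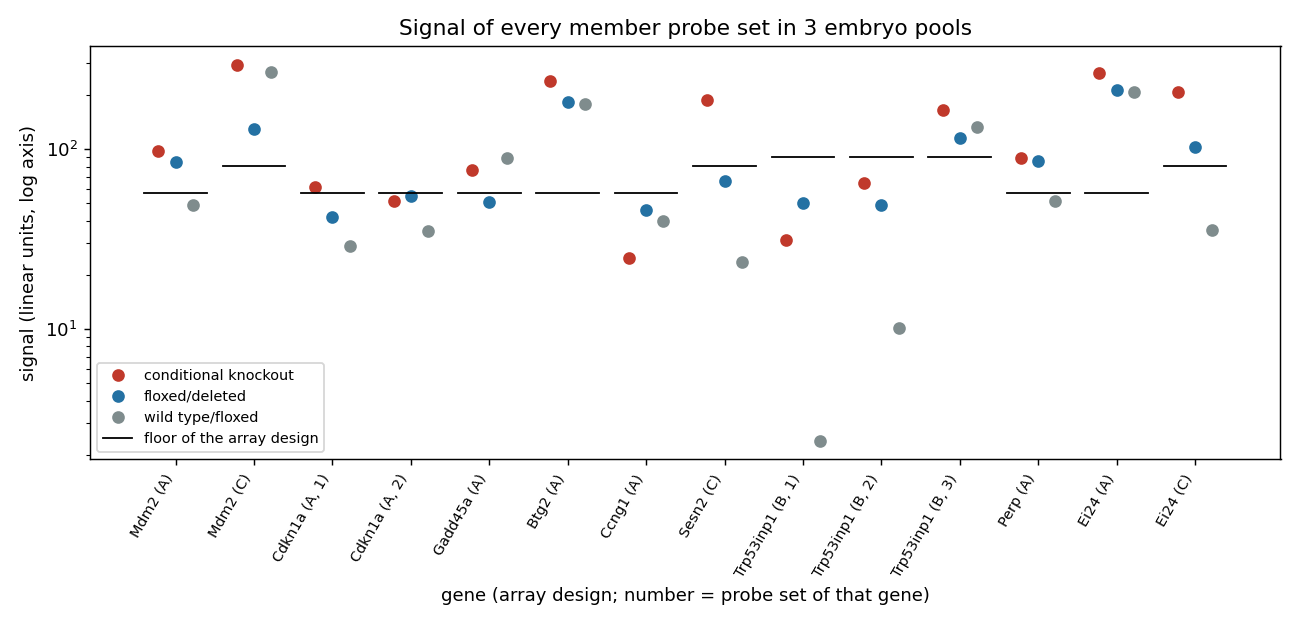
Signal (log axis, linear units) of all 14 probe sets in the conditional knockout, floxed/deleted and wild-type/floxed pools, with the floor of each array design as a black line and 1 array behind each point. In the 4 probe sets above the floor in every pool the knockout point is on top, including Btg2 at 239, while Sesn2 at 187 has both controls below the floor and the probe set of Ccng1 lies below the floor in all 3 pools.

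Mdm2, which limits p53 and is induced by it, had 2 measured probe sets. On design C its signal was 295 in the knockout, 130 for floxed/deleted and 270 for wild type/floxed. On design A it was 98.2 in the knockout, 84.9 for floxed/deleted and 48.9 for wild type/floxed, the last below the floor. The knockout was the highest pool on both, by 1.09-fold on C and 1.16-fold on A against the nearer control. The nearer control was wild type/floxed on C and floxed/deleted on A. Floxed/deleted minus wild type/floxed was -1.06 on the log2 scale on C and at least 0.57 on A, so the 2 probe sets put the controls in opposite order. The gap between the controls was larger than the knockout's distance from the nearer one on each design.

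Ccng1, the other gene of p53 feedback here, encodes cyclin G1, which acts with a phosphatase on Mdm2. Its signal was 25.0 in the knockout, 45.8 for floxed/deleted and 40.0 for wild type/floxed. All 3 lay below the floor, so their order is not read.

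Among the genes of cell cycle arrest, only Btg2, an antiproliferative cofactor of transcript decay, was above the floor in all 3 pools. Its signal was 239 in the knockout, 183 for floxed/deleted and 178 for wild type/floxed, and the nearer control was exceeded by 1.31-fold. The 2 controls differed by 1.03-fold. On the log2 scale the knockout was 0.39 above the nearer control, less than the standard deviation of 0.44 between the controls on design A. Cdkn1a, which encodes the Cdk inhibitor p21 and is the classical p53 target, was close to the floor. Its first probe set gave 61.7 in the knockout, 41.9 for floxed/deleted and 28.9 for wild type/floxed, at least 1.08-fold higher. Its second gave 51.6 in the knockout, 54.7 for floxed/deleted and 34.9 for wild type/floxed, all below the floor. The gene whose promoter holds paired p53 matches thus had little signal above the floor in any pool. Gadd45a, a stress sensor that binds Cdk1 and the replication factor PCNA, was 77.1 in the knockout, 50.6 for floxed/deleted and 89.4 for wild type/floxed. It was the 1 measured gene of the 8 in which the knockout lay between the controls.

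Sesn2 encodes a leucine sensor that restrains mTORC1 and is induced both by p53 and by the amino acid stress factor ATF4. Its signal was 187 in the knockout, 67.0 for floxed/deleted and 23.6 for wild type/floxed, at least 2.32-fold higher. Both controls lay below the floor, so their order is not read. Its single probe set is on design C, where 11.9% of measured probe sets were at least 1.5-fold higher in the knockout than in both controls. The suffix of its name marks an incomplete choice of probes. With a floor at the 70th percentile its log2 difference from the controls was at least 0.18, against at least 1.21 here, since the floor stands in for both controls. Of 29 measured genes of ATF4 and the unfolded protein response, Sesn2 was the 1 gene at least 1.5-fold higher, or 3.45%. The share of all measured genes was 6.45%. At least 1.5-fold lower were 2, or 6.90%, against 5.68% of all measured genes. These were Ddit4, an mTORC1 inhibitor that is also a p53 target, with 58.1 in the knockout, 217 for floxed/deleted and 210 for wild type/floxed, and Sdf2l1, an endoplasmic reticulum chaperone cofactor, with 254, 436 and 391 in the same pools. Sesn2 and Ddit4, both known as targets of p53 and of ATF4, therefore lay on opposite sides of the controls.

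Trp53inp1, a nuclear cofactor that promotes p53 activity and autophagy, had 1 measured probe set of 3. It gave 164 in the knockout, 116 for floxed/deleted and 134 for wild type/floxed, 1.23-fold higher. The others gave 64.6 in the knockout, 48.8 for floxed/deleted and 10.2 for wild type/floxed, and 31.2, 50.0 and 2.4 in the same pools, all below the floor of 90.0.

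Of the genes of cell death, Ei24, an endoplasmic reticulum protein linked to apoptosis and autophagy, was higher on both of its probe sets. On design A it was 264 in the knockout, 214 for floxed/deleted and 208 for wild type/floxed, 1.24-fold higher. On design C it was 207 in the knockout, 102 for floxed/deleted and 35.7 for wild type/floxed, the last below the floor. The knockout was 2.02-fold higher than floxed/deleted there. The gap was larger on the noisier design, and the controls on A differed by only 1.03-fold, so their order there says little. Perp, a desmosome protein and apoptosis effector of p53 in mouse, was 89.0 in the knockout, 85.5 for floxed/deleted and 51.8 for wild type/floxed. Its 1.04-fold distance from floxed/deleted was small beside the gap between the controls, which was at least 1.49-fold.

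**Figure D2:**
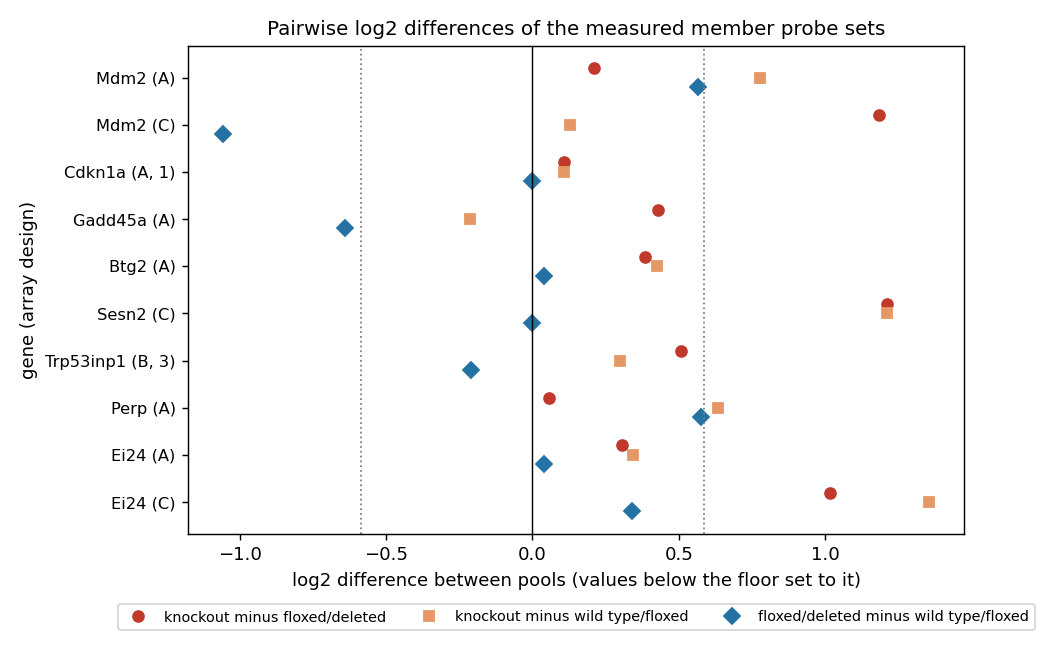
Log2 differences between pools for the 10 measured probe sets, with values below the floor set to it, and dotted lines at 1.5-fold. Knockout minus either control is above 0 except for Gadd45a minus wild type/floxed, while floxed/deleted minus wild type/floxed runs from -1.06 (Mdm2 on C) to at least 0.58 (Perp, with wild type/floxed at the floor).

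The median log2 difference of the 8 measured genes, knockout minus the mean of both controls, was 0.37, and that of all measured genes was -0.02. For the 6 genes above the floor in at least 1 control it was 0.37 as well, against -0.04 for the 11785 genes chosen the same way, and these medians come from genes that a floor let through. The difference was 0.66 for Mdm2, 0.41 for Btg2, 0.40 for Trp53inp1 and 0.32 for Ei24, each with all 3 pools above the floor. The value of Mdm2, from design C, came mostly from floxed/deleted, with 1.18 against that pool and 0.13 against wild type/floxed. With 1 or both controls at the floor the difference from the mean of both was at least 1.21 for Sesn2, at least 0.35 for Perp, and at least 0.11 for Cdkn1a and for Gadd45a. Floxed/deleted minus wild type/floxed had a median of -0.09 over the 6 genes above the floor in a control and of 0.01 over all genes chosen the same way. By the 1.5-fold count, 1 of the 8, Mdm2, was lower than both other pools in floxed/deleted, against 5.52% of all measured genes. Floxed/deleted was higher than both others for 0 of the 8, against 7.49%. Wild type/floxed was higher for 0, against 6.65%, and lower for 0, against 5.56%. The 1 gene called in the knockout, Sesn2, was thus higher there, and the 1 called in a control pool, Mdm2, was lower there.

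On the deposited signals, the order knockout, floxed/deleted, wild type/floxed from high to low held for 2 of the 4 probe sets that exceeded the floor in every pool, those of Btg2 and Ei24, against 16.8% of all probe sets of that kind. The order knockout, wild type/floxed, floxed/deleted held for the other 2, those of Mdm2 and Trp53inp1, against 17.6%.

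Beside the counts of the related lists below stand the shares of all measured genes given above, 33.4% highest and 26.1% lowest in the knockout by any amount, 6.45% at least 1.5-fold higher and 5.68% at least 1.5-fold lower. The closest relatives of these genes went both ways. Of the 11 measured paralogs, 1 was at least 1.5-fold higher in the knockout and 1 lower, and the median difference was 0.12. The higher one was Bok, a relative of Bax and Bak1 that can permeabilise membranes, with 285 in the knockout, 188 for floxed/deleted and 187 for wild type/floxed. The lower one was Trp53inp2, an autophagy cofactor, with 60.5 in the knockout, 91.3 for floxed/deleted and 103 for wild type/floxed, 1.51-fold. Trp53inp1 and Trp53inp2 thus stood on opposite sides of the controls. Bak1, a pore-forming effector of apoptosis, was nearly level, at 251 in the knockout, 231 for floxed/deleted and 232 for wild type/floxed. Sesn1 was 90.1 in the knockout, 76.7 for floxed/deleted and 80.7 for wild type/floxed, and Sesn3 was below the floor in all pools. Ccng2 was 48.8 in the knockout, 75.8 for floxed/deleted and 82.7 for wild type/floxed, at least 1.32-fold lower. Mdm4, the Mdm2 partner that blocks p53, was 151 in the knockout, between 136 for floxed/deleted and 227 for wild type/floxed. Cdkn1c, which encodes the Cdk inhibitor p57, was likewise between the controls, at 286 against 207 and 332. Gadd45g was 89.7 in the knockout, against 107 for floxed/deleted and 30.6 for wild type/floxed. Btg1 was 95.6 in the knockout with both controls below the floor, at 19.1 and 35.4. Tob1, an antiproliferative relative of Btg2, was 94.0 in the knockout, 96.2 for floxed/deleted and 346 for wild type/floxed, and its difference of -0.96 from the mean of the controls came from wild type/floxed alone. Tob2 was 151 in the knockout, 38.1 for floxed/deleted and 157 for wild type/floxed. Gadd45b and Cdkn1b were below the floor in all pools, and Btg3 and the gene of p53 itself were not analysed here.

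Regulators of p53 went both ways, with 3 of 20 measured genes at least 1.5-fold higher in the knockout and 3 lower, and a median difference of 0.10. The higher ones were Hipk2, a kinase that phosphorylates p53 (278 in the knockout, 87.1 for floxed/deleted and 98.4 for wild type/floxed), Trp63, a p53 relative of epithelia (184, 97.1 and 33.0), and Ppm1d, a p53-induced phosphatase that ends the response (269, 158 and 147). The lower ones were Ppp1r13b, a p53 cofactor known as ASPP1 (44.9, 217 and 228), Rchy1, a ubiquitin ligase for p53 (161, 256 and 266), and Trp73, another p53 relative (133, 218 and 202). Other probe sets did not repeat several of these. A Hipk2 probe set on A gave 67.3 in the knockout, 62.6 for floxed/deleted and 156 for wild type/floxed, a Ppm1d probe set gave 133, 71.7 and 133, and a Ppp1r13b probe set gave 149, 57.7 and 243. A second Trp63 probe set was below the floor in all pools.

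Among 39 measured further p53 targets, 2 were at least 1.5-fold higher and 1 was lower, with a median difference of -0.11. Steap3, an endosomal ferrireductase, was 337 in the knockout, 148 for floxed/deleted and 167 for wild type/floxed, and Ppm1d and Ddit4 have been given above. By any amount, 9 of the 39 were highest in the knockout and 11 lowest, while 16 were highest in floxed/deleted, so 23.1% were highest and 28.2% lowest in the knockout, against 33.4% and 26.1% of all measured genes, and 34.1% of all were highest in floxed/deleted. The median of this broader set of p53 targets thus lay below 0, and that of the 8 genes above it.

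The BCL2 family holds both protectors and promoters of cell death. Of 21 measured genes, 13 were highest in the knockout by any amount, against 33.4% of all measured genes. By at least 1.5-fold 4 were higher, against 6.45%, and 1 was lower, against 5.68%, with a median difference of 0.23. The other 3 of the 4 besides Bok were Bcl2l10 (187 in the knockout, 82.1 for floxed/deleted and 71.5 for wild type/floxed) and the BH3-only death promoters Hrk (214, 34.9 and 33.1) and Bik (95.9, 20.0 and 25.4). In all, 3 of the 21 genes, Hrk and Bik among them, were above the floor in the knockout alone and could be counted only as higher. Of the 18 genes of the family above the floor in a control, 10 were highest in the knockout by any amount, or 55.6%, against 29.7% of all genes chosen the same way. At least 1.5-fold higher were 2 of the 18, or 11.1%, against 4.44%, and the median difference of the 18 was 0.12. With a 70th percentile floor 1 gene of the family was higher, and at 2-fold 2 were. Another Bcl2l10 probe set gave 28.5 in the knockout, 65.8 for floxed/deleted and 13.5 for wild type/floxed, and another of Hrk was below the floor in all pools. The lower gene was Bnip2 (91.3, 156 and 208), and another of its probe sets gave 122, 154 and 125. The p53-induced BH3-only gene Pmaip1, which encodes Noxa, was 187 in the knockout, 112 for floxed/deleted and 131 for wild type/floxed, under 1.5-fold. Bbc3, which encodes Puma, was above the floor in floxed/deleted alone, at 139.

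Caspases and death receptors carry apoptosis out and relay outside death signals. The list named after them also holds genes that inhibit apoptosis, such as Xiap, so its counts and median mix opposite functions. Of 31 measured genes of this list, 0 were at least 1.5-fold higher in the knockout and 2 were lower, with a median difference of -0.14, and by any amount 3 were highest in it, against 33.4% of all measured genes, and 12 lowest, against 26.1%. The 3 highest were the apoptosis inhibitor genes Birc2, by 1.02-fold, Birc3, by at least 1.16-fold, and Birc5, by 1.22-fold. Birc3 was above the floor in the knockout alone. The share lower by 1.5-fold, 6.45%, was near the 5.68% of all measured genes. The 2 lower ones were the executioner caspase gene Casp6, with 42.3 in the knockout, 97.9 for floxed/deleted and 95.2 for wild type/floxed, and the iron-sulphur assembly factor Ciapin1, with 293, 561 and 518. Casp9, the caspase activated by the apoptosome, was 90.6 in the knockout, 116 for floxed/deleted and 94.5 for wild type/floxed. Cyclins, Cdks and other genes of the cell cycle that p21 acts on had 3 of 24 at least 1.5-fold lower and 0 higher, and a median of -0.14. The 3 were Ccnd1, a beta-catenin target that encodes cyclin D1 (135 in the knockout, 444 for floxed/deleted and 316 for wild type/floxed), Ccnd2 (73.0, 132 and 154) and Ccnb2 (1108, 2041 and 1906). Of the other Ccnd1 probe sets, 1 was lower as well (136, 259 and 270) and 1 lay between the controls (127, 42.8 and 154).

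**Figure D3:**
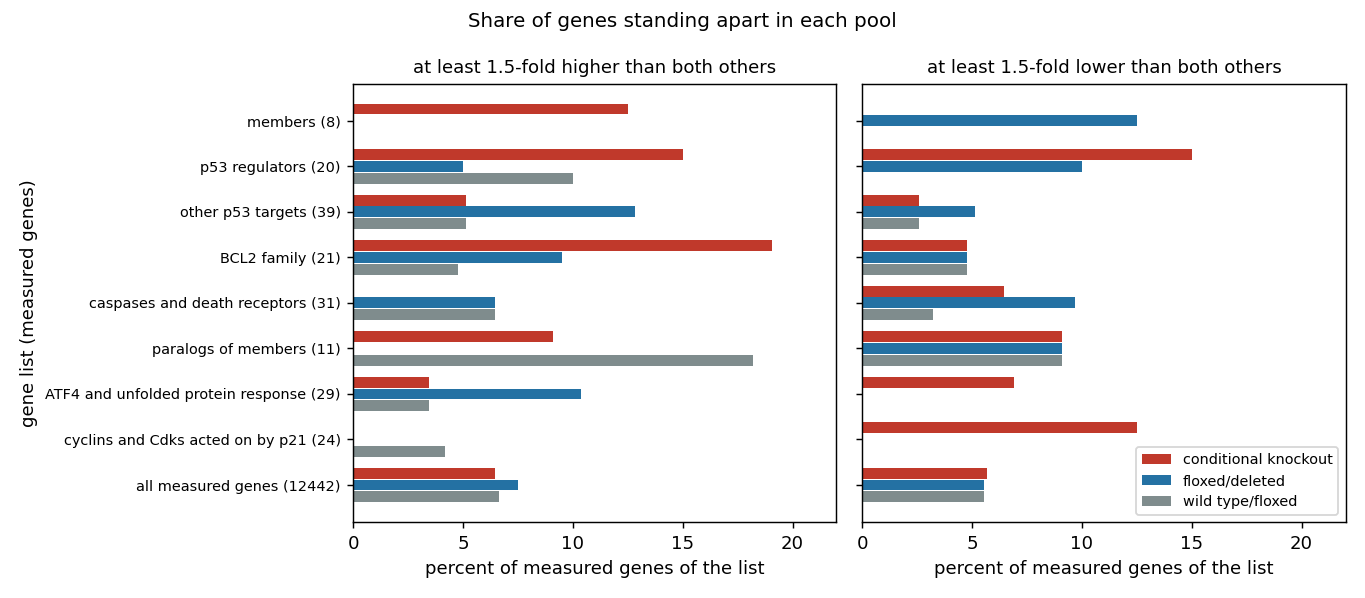
Percent of the measured genes of each list that were at least 1.5-fold higher (left) or lower (right) than both other pools, for the conditional knockout, floxed/deleted and wild-type/floxed pools. The BCL2 family has 19.0% higher in the knockout and all measured genes 6.45%, with 2 of the 4 BCL2 genes above the floor in the knockout alone, caspases and death receptors have 0, and the p53 targets and apoptosis genes of the top row stand for 1 gene of 8.

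Markers of several cell types also differed between the pools. Of 11 visceral endoderm markers, the outer epithelium of the embryo, 10 were highest in the knockout and 4 by at least 1.5-fold, and their summed signal was 37865 in the knockout, 18670 for floxed/deleted and 21335 for wild type/floxed. Most of that sum came from Apoa1 (16068, 7336 and 6813) and Amn (12923, 6390 and 8806), while Ttr (528, 451 and 465) was near level and Hnf4a (422, 380 and 469) lay between the controls. Krt19, whose promoter drove Cre, was 232 in the knockout, 97.6 for floxed/deleted and 119 for wild type/floxed. All 6 epiblast markers were highest in the knockout, with summed signals of 12521, 7032 and 5617 in the same pools. Above the floor in the knockout alone, and so countable only as higher, were 2 visceral endoderm markers and 1 epiblast marker. Of those above the floor in a control, 8 of 9 visceral endoderm and 5 of 5 epiblast markers were highest in the knockout, against 29.7% of genes chosen the same way. By at least 1.5-fold 3 and 4 were higher, against 4.44%. Of 4 measured streak and mesoderm markers, 2 were at least 1.5-fold lower, Tbx6 and Wnt3a, while Eomes was highest in the knockout (131, 98.7 and 67.5) and Mesp1 lay between the controls (344, 427 and 310), with sums of 599, 972 and 903. Of 6 measured trophoblast and extraembryonic ectoderm markers 1 was at least 1.5-fold higher, with sums of 805, 710 and 653, and of 3 measured erythroid markers 0 were higher, with sums of 162, 251 and 107. Of 5 phagocyte markers 3 were measured, with sums of 266, 72.2 and 118, and the control sums lay mostly below the floor. C1qb (115, 43.7 and 30.6) and Csf1r (96.2, 9.1 and 26.7) were above the floor of 57.3 in the knockout alone and could be counted only as higher. Cd68, the remaining measured phagocyte marker, was highest in wild type/floxed, and its difference from the mean of the controls was -0.04. Of 7 markers of maternal decidua and immune cells 4 were measured, and 2 were at least 1.5-fold higher, with sums of 717, 351 and 212. These were C1qb again and Laptm5 (446, 271 and 109), and Prl8a2 (102, 17.6 and 11.4) was above the floor in the knockout alone. Cd68 was again the remaining measured marker. The defining leukocyte and macrophage genes Ptprc and Lyz2 were below the floor in all pools, and so was the decidua marker Dcn. The ratio of 5′ to 3′ signal for beta-actin, which falls as RNA degrades, was lowest in the knockout on each design, and on A it was 0.570 in the knockout, 0.655 for floxed/deleted and 0.696 for wild type/floxed. The same ratio for Gapdh lay between the controls on each design, and on A it was 1.09 in the knockout, 1.07 for floxed/deleted and 1.15 for wild type/floxed. The part of these differences in the values of the p53 targets was not tested.

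Ctnnb1 itself was 1376 in the knockout, 1509 for floxed/deleted and 1773 for wild type/floxed, and the sources used here do not say whether its probes fall in the deleted region.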

How the data were processed

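Total RNA of pooled E7.5 mouse embryos was measured on 9 one-colour Affymetrix arrays, 3 pools on 3 designs. The authors deposited linear intensity values, 1 per probe set; the sources used here do not give how probes were summarised and scaled. Chip types are per the file headers. Arrays of a design were brought to equal means without the lowest and highest 2% of values, a floor was set at the median, and log2 was taken. The call was 1.5-fold from both controls. Gene names came from the platform annotation (29197 probe sets with 1 symbol, 724 with several and 6978 with none). One probe set per gene was used in counts over lists, the brightest measured. Promoters were RefSeq's. Named were the members, their paralogs, and up to 6 genes per direction and list that passed the call. Tob1, Tob2, Pmaip1, Bbc3, Casp9 and the named cell type markers were chosen after their values were seen. The members and lists were chosen with earlier results of these data known. The call rule was tested on simulated data without noise. Python 3.11.15, numpy 2.4.6 and pandas 2.3.3 were used. Alternatives changed the scaling, floor, probe set choice, control pool and call fold. No significance test was run, as each group had 1 array.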

Additional observations from a re-analysis of the deposited data

How the results depend on the processing

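Besides the setting used, 12 others were tried. Suffixed probe sets, left out in 1 of them, are those with f, s, g, i or r before the name's ending, that of Sesn2 included. The median difference of the measured p53 targets stayed between 0.32 and 0.46. Their number at least 1.5-fold higher, 1 in the setting used, was 0 under a 70th percentile floor, without suffixed probe sets and on design A alone. It was 2 with the mean over probe sets, either pool as the sole control or a looser call fold. The share of all measured genes was then 5.32% with the mean over probe sets, 14.1% against floxed/deleted alone, 13.7% against wild type/floxed alone and 14.2% at the looser fold. The number lower, 0 otherwise, was 1 under the 30th percentile floor, which let Ccng1 count as measured. Gadd45a was -0.21 with wild type/floxed as the sole control. Over all related lists together, without the members, 8 genes were higher and 12 lower, where 6.45% and 5.68% of all measured genes were. The counts were 16 and 21 under a 30th percentile floor, 4 and 6 under the 70th percentile floor, 20 and 26 against floxed/deleted alone, 14 and 25 against wild type/floxed alone, 4 and 3 at 2-fold, and 17 and 22 at the looser call fold. With no floor 20 were lower, with the mean over probe sets 5 were higher, and on design A alone 3 were higher. List medians near 0 changed sign. That of p53 regulators was -0.01 with the mean over probe sets, -0.09 without suffixed probe sets and -0.2 with wild type/floxed as the sole control. That of paralogs was -0.03 with the 70th percentile floor, -0.06 with wild type/floxed as the sole control and 0 on design A. That of ATF4 genes was 0.05 with equal medians, 0.05 with the 30th and 0.03 with the 70th percentile floor. The BCL2 family, 4 higher with a median of 0.23, had 1 higher with the 70th percentile floor and 2 at 2-fold. It had 7 against floxed/deleted alone or at the looser fold. Its median was 0.12 without suffixed probe sets and against floxed/deleted alone. Floors and fewer probe sets change which genes are measured; the cause of the other moves was not tested. No paired analysis was possible because each group had 1 array. Signal near background limits Cdkn1a, Ccng1 and Sesn2 most.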

Other observations

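Measured genes with and without the p53 half-site in a promoter are given side by side, with no test. The 825 measured genes with a match had a median log2 difference of -0.02, knockout minus the mean of both controls, and the 9129 without one had -0.01. At least 1.5-fold higher than both controls were 7.15% of those with a match and 6.25% of those without, and 5.70% and 5.33% were lower. This comparison was chosen after the data were seen. Among the gene lists, the match was in 9 of 37 promoter-annotated genes of the further p53 targets (24.3%), 3 of 19 p53 regulators, 1 of 18 BCL2 family genes, 3 of 36 caspases and death receptor genes, and 0 of 18 cyclins and Cdks, against 9.55% of all 27025 genes.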
